A study of Mus musculus with 9 samples.

Results

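Endothelial and mural cell genes are 34 genes taken to mark the cells of brain blood vessels, though some, such as Bsg, are expressed in other cells too. They are a list of marker genes given by symbol, with no value in the rule but drawn up when earlier results of these data were known, and all 34 were present among the 23798 genes of the table. Total RNA from mouse brain, labelled by cell type as oligodendrocyte, was sequenced in 9 libraries of 3 groups with 3 samples each. Placebo was given to mice of the WT genotype (WT placebo) and to mice whose genotype is labelled TG (TG placebo), and NM-101 to further TG mice (TG NM-101). The series title names alpha-synuclein made by neurons and its effects in oligodendrocytes. The sources used here give no transgene, promoter or age, and neither the dose nor the nature of NM-101. RNA came from a kit for fixed, paraffin-embedded tissue, and the QuantSeq libraries read transcripts from the 3' end. Nothing in the labels ties the 3 samples of a group to separate animals, and p-values therefore reflect only how these samples spread, possibly for technical reasons.

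Brain capillaries are lined by endothelial cells that tight junctions seal into the blood-brain barrier. Nutrients enter through dedicated transporters, and efflux pumps return many foreign compounds to the blood. Mural cells, which are pericytes on capillaries and smooth muscle cells on arterioles, wrap the endothelium, and perivascular fibroblasts lie around the larger vessels. The 34 genes were arranged in 6 classes by role, with 6 endothelial receptors and signalling genes, 10 genes of endothelial junctions and surface, 5 of barrier transport and metabolism, 7 of pericytes, 3 of smooth muscle, and 3 of perivascular fibroblasts and shared matrix.

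The RefSeq promoter table of GRCm38.p6 held an entry for 23 of the 34 genes, with 27 windows of 250 bases before a transcription start. Windows are shown for 3 genes whose TG NM-101 and TG placebo values did not overlap (Igfbp7, Slco1a4, Abcb1a), for the junction gene Cldn5, whose values did, and for the smooth muscle gene Myl9. Capitals mark GGAAG, the core that ETS factors of endothelial cells bind, on either strand (CTTCC on the other), or a CArG box, the serum response factor site of smooth muscle genes.
Igfbp7: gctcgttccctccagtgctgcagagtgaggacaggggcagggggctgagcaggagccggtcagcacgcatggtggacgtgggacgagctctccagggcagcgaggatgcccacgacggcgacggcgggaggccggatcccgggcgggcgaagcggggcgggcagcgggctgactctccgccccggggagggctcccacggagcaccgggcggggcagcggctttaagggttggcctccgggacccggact
Slco1a4: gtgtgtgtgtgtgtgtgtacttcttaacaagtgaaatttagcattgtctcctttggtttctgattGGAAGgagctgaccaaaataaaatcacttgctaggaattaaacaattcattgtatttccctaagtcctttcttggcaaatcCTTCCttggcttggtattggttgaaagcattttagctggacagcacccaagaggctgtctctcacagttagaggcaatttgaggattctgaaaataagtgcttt
Abcb1a: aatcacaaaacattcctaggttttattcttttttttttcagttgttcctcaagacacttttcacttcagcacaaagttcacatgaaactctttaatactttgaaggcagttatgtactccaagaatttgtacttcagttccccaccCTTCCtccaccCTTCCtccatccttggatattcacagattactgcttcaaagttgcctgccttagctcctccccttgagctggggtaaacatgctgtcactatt
Cldn5: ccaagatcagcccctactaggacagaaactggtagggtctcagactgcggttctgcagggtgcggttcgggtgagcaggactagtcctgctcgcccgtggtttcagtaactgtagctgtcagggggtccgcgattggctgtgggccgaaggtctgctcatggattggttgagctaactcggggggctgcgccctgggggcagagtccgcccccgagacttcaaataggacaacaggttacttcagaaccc
Myl9: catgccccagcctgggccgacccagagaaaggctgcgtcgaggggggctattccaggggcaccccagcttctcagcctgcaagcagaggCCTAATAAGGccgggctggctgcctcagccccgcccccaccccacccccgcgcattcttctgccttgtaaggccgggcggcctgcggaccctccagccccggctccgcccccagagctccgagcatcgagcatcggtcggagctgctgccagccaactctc
The windows lie at chr5:77408046-77408295 on the minus strand for Igfbp7, chr6:141856221-141856470 on the minus strand for Slco1a4, chr5:8566841-8567090 on the plus strand for Abcb1a, chr16:18776597-18776846 on the plus strand for Cldn5, and chr2:156775214-156775463 on the plus strand for Myl9. Those of Igfbp7, Abcb1a and Cldn5 end at the annotated 5' end of the gene, and those of Slco1a4 and Myl9 precede a start inside the annotated gene and overlap its 5' end. GGAAG occurred 2 times in the Slco1a4 window and 2 times in the Abcb1a window, and 0 times in those of Igfbp7 and Cldn5. The GC content was 74.0% for Igfbp7 and 70.0% for Myl9, against 39.2% for Slco1a4 and 40.4% for Abcb1a. Of the 27 windows, 51.9% held GGAAG on either strand, against 64.1% of all 32851 windows of that length. The longer ETS motif AACAGGAA was in 3.7% of the windows (Egfl7 alone), against 2.25% of all, and a CArG box in 3.7% (Myl9 alone), against 1.47%. An AACAGGAA followed by G also holds GGAAG. These matches describe letters and not binding.

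The WT columns hold counts and the TG columns log2 values, read here as log2(FPKM + 1), so levels are given on that scale and WT levels were rebuilt as log2(RPKM + 1). WT libraries held 10612290, 14041951 and 11774367 counts, and for the TG libraries the depth is unknown. Neuronal RNA was abundant beside the labelled cell type. The 10 neuronal markers summed to 4454 to 5180 FPKM in the TG libraries, against 1521 to 4780 FPKM for the 10 oligodendrocyte markers. TG placebo replicate 1 and WT placebo replicate 1 stood apart in choroid plexus genes. Among these, the transthyretin gene Ttr was at 12.14 and 11.56 there and between 1.74 and 10.00 in the other 7 libraries. NM-101 replicate 2 also held such RNA. Its choroid plexus and ependymal markers summed to 1139 FPKM, against 108 and 121 FPKM in NM-101 replicates 1 and 3. TG placebo replicates 2 and 3 stood apart in nuclear-retained RNA, with Malat1 at 9.00 and 9.48 against 6.11 in TG placebo replicate 1 and 7.09 to 7.65 under NM-101. Blood RNA was present and differed between libraries: the haemoglobin gene Hba-a1 was at 1.99, 0.14 and 0.45 in WT, 2.85, 1.04 and 1.11 in TG placebo and 0.55, 1.00 and 2.17 under NM-101. Summed, the blood markers ran from 1.69 to 7.14 FPKM in TG placebo and from 1.26 to 4.01 FPKM under NM-101, and Hba-a2 and Hbb-bs were at 0 in all WT libraries. In WT placebo and TG placebo, Hba-a1 was highest in replicate 1, as Ttr was.

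Levels on the per-length scale ran from Bsg to Anpep. Bsg, which encodes basigin, a chaperone of lactate transporters that neurons and glia also express, was highest at 8.17 to 8.65 in TG placebo. Next came the glucose transporter gene Slc2a1 at 5.41, 4.94 and 4.94 and Dcn, the gene of the fibroblast proteoglycan decorin, at 3.83, 5.77 and 5.59. The Dcn values enclosed those of Slc2a1, of Ly6c1 (4.59, 4.93 and 5.14) and of Ramp2 (4.65, 5.01 and 4.93), so these neighbours were not separated beyond their spread. The endothelial growth factor receptors stood lower on this scale, with Flt1 at 1.82, 2.25 and 2.38. Kdr was at 0.71, 1.31 and 1.33 and Tek at 0.65, 1.54 and 1.56, and Kdr and Tek overlapped. Because the libraries read from the 3' end, division by length lowers long genes, and this order is not one of read abundance. In WT counts Flt1 had a mean of 24.2 CPM, above Ramp2 at 17.9 and Egfl7 at 21.1. Kdr at 6.7 and Tek at 9.6 CPM were below both. Aminopeptidase N, from the pericyte gene Anpep, was lowest at 0.36, 0.27 and 0.37. The von Willebrand factor gene Vwf, the potassium channel subunit gene Abcc9, the receptor gene Notch3 and Anpep had means under 1 over the 6 TG libraries and were not tested there. The first 3 means were 0.77, 0.75 and 0.86, and that of Anpep was 0.35. The lowest members tested were Kdr at 1.03 and Tek at 1.11.

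**Figure D1:**
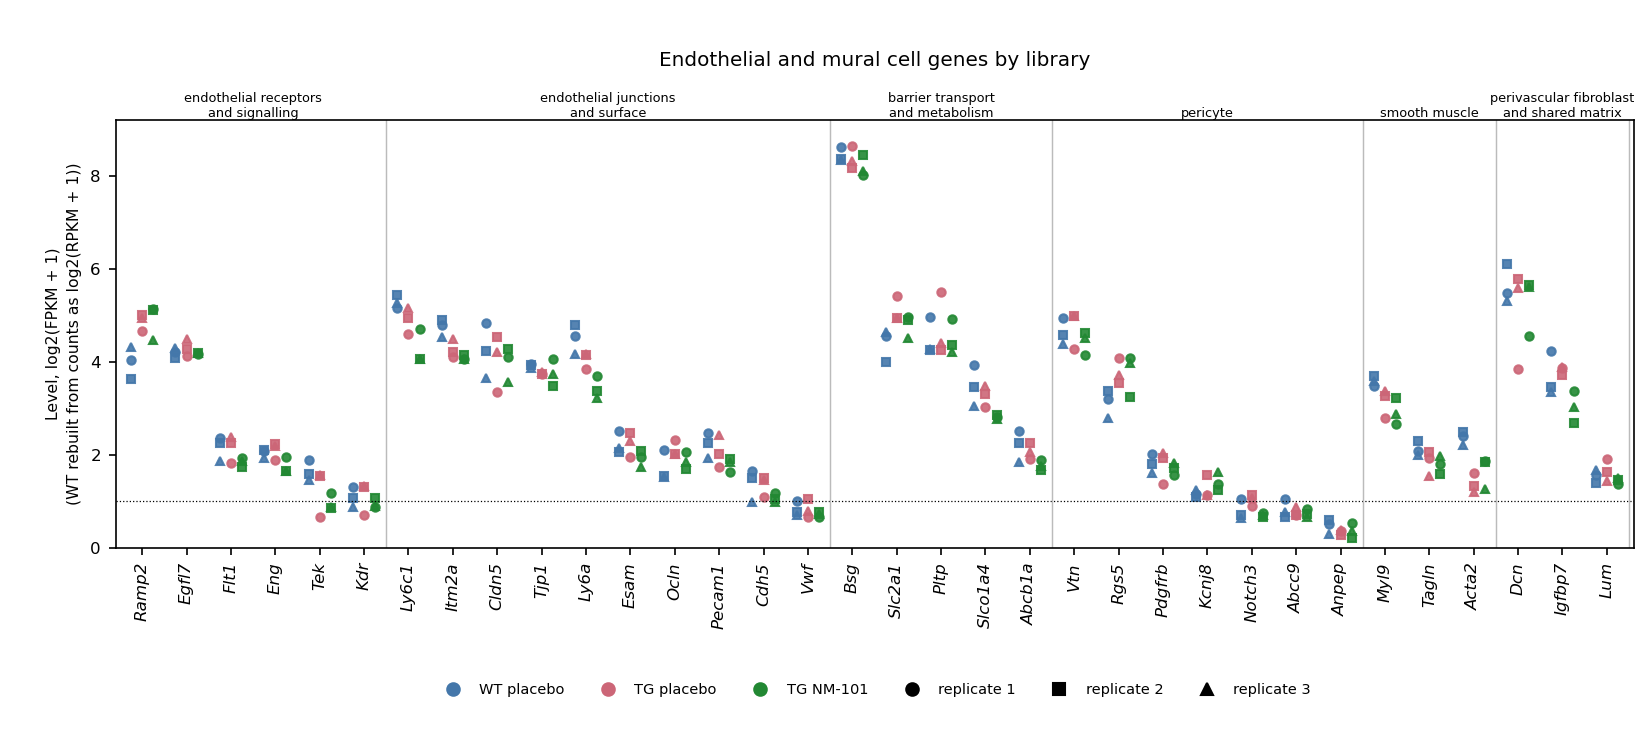
Level of each of the 34 genes in each library, by class, on the log2(FPKM + 1) scale for the TG libraries and rebuilt as log2(RPKM + 1) for the WT libraries; shapes give the replicate and the dotted line the mean level of 1 needed for testing. Bsg stands highest at 8.17 to 8.65 in TG placebo, and Anpep lowest at 0.27 to 0.37.

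Within the WT group, the members were measured as counts. Together they took 1325 CPM in replicate 1 (Wilson 95% interval 1304 to 1347), 1165 in replicate 2 (1148 to 1183) and 1054 in replicate 3 (1035 to 1072). These intervals cover counting error only, and they did not overlap. Bsg, which neurons and glia also express, held 493, 411 and 407 of these CPM, so the sums are not a vascular share. Cldn5, the main claudin of brain endothelial tight junctions, was at 38.8, 25.1 and 16.3 CPM (intervals 35.3 to 42.8, 22.6 to 27.8 and 14.2 to 18.8), a 2.38-fold span. The organic anion transporter gene Slco1a4 was at 54.5, 37.8 and 27.7 CPM, and the adherens junction cadherin gene Cdh5 at 8.57, 7.19 and 3.91 CPM. Slco1a4 and Cldn5 were thus highest in replicate 1 and lowest in replicate 3 beyond counting error. The scaffold gene Tjp1, expressed in many brain cell types, was at 88.4, 87.8 and 84.3 CPM, and its intervals overlapped. Replicate 3 was lowest in 24 of the 34 genes, where it was lowest in 35.2% of the 12887 genes with a mean of at least 2 CPM. Replicate 1 was highest in 19 of 34, against 37.1% of those genes.

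**Figure D2:**
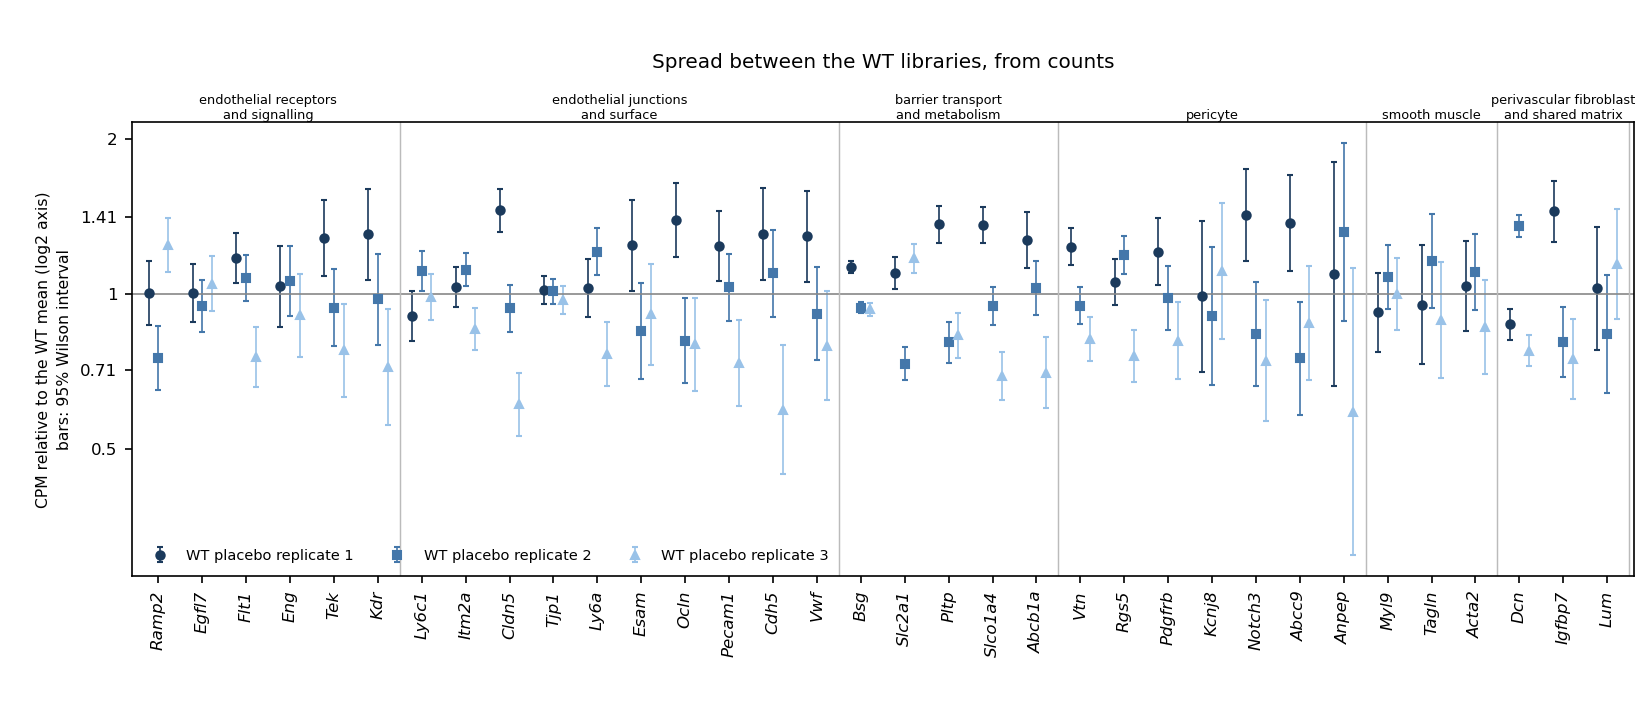
CPM of each gene in the 3 WT placebo libraries relative to its WT mean on a log2 axis, with Wilson 95% intervals as bars, for counting error only. Cldn5 spans 2.38-fold from replicate 1 to replicate 3, and Tjp1 lies near 1 in all 3.

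A gene's value sums its transcript rows. The 34 genes had 62 rows, with 22 genes on 1 row and 12 on several, and 7 rows were at 0 in all 9 libraries. In 6 genes (Abcc9, Eng, Ly6a, Pdgfrb, Pecam1 and Tek) the row that held the most changed between libraries. In Abcc9 the counts of WT replicates 1 to 3 were 83, 60 and 0 on NM_001310143 and 0, 0 and 59 on NM_011511, while the summed counts were 83, 60 and 59. Both rows have a length of 7306 bases. In Pdgfrb, the platelet-derived growth factor receptor gene of pericytes, NM_008809 held 116, 186 and 89 WT counts and NM_001146268 held 57, 0 and 40. Reads were thus divided between rows differently from library to library, and values are given per gene.

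**Figure D3:**
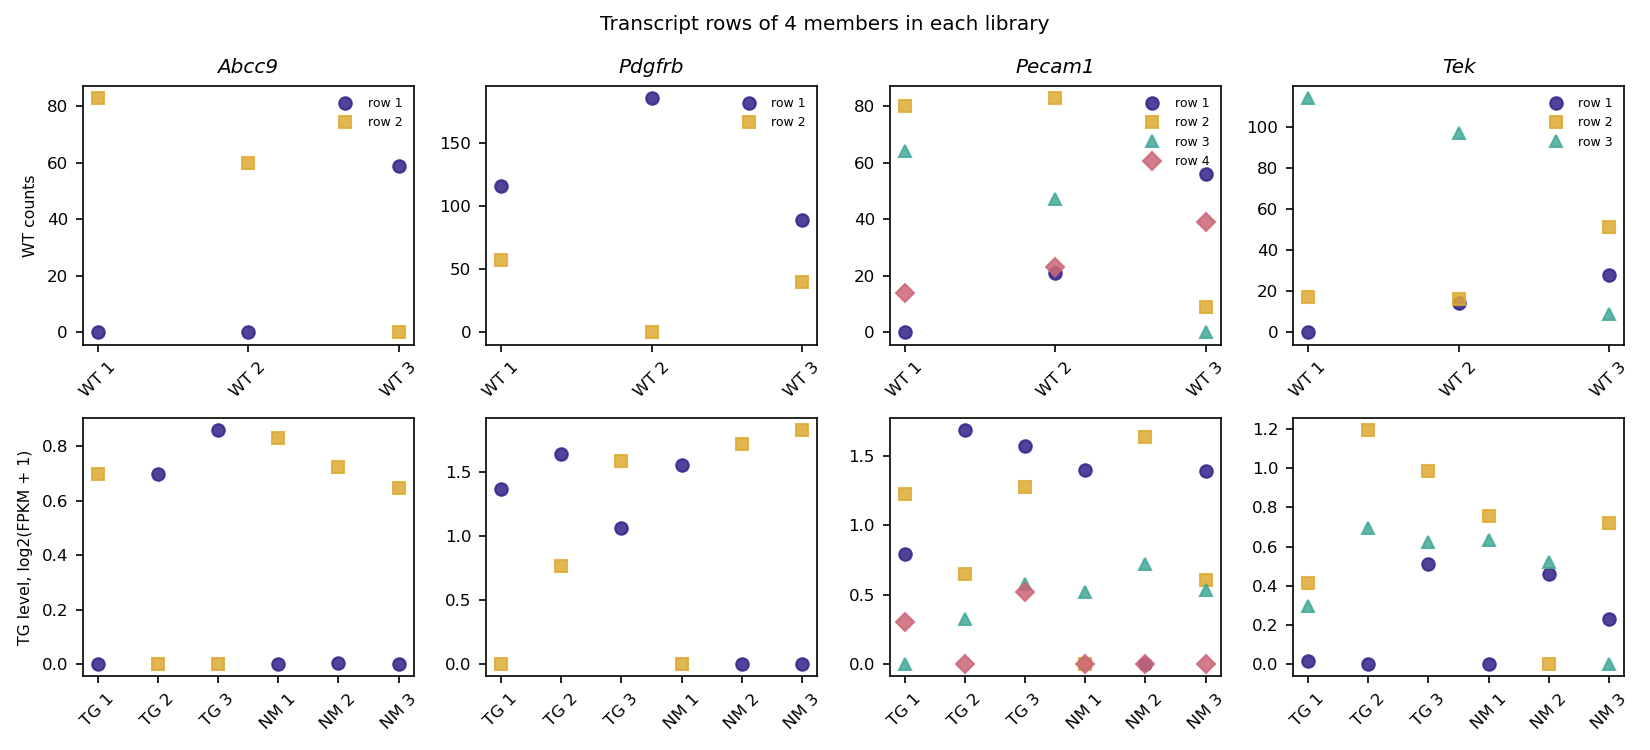
Counts (WT libraries) and log2(FPKM + 1) values (TG libraries) of the transcript rows of Abcc9, Pdgfrb, Pecam1 and Tek in each library, with a colour per row. In Abcc9 nearly all signal of a library sits on a single row, and which row it is differs between libraries.

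Several genes share sequence or exons with neighbours, and their values are uncertain. Of all 50-base stretches of Ramp2 transcripts, 30.7% also occur in Vps25, whose exons overlap it by up to 637 bases on the same strand. Ly6c1 shares 21.5% with Ly6c2 and 11.1% with Ly6a, Ly6a shares 15% with Ly6c1, and Abcb1a shares 16.3% with Abcb1b. On the opposite strand, exons overlapped by 311 bases between Pltp and Ctsa, by 645 between Tagln and Gm48529 and by 85 between Igfbp7 and Polr2b. The sources used here do not state whether counting used the strand.

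Within the TG genotype, NM-101 was compared with placebo to see what the compound changed. Most of the 30 members tested had a lower mean under NM-101, led by Igfbp7, Ly6a, Ly6c1 and Slco1a4, and none of these 30 passed the test. TG placebo replicate 1 stood apart from this, with a member median only 0.01 above the NM-101 mean. Of 91 other vessel wall genes tested, 53.8% were below 0. The limma test across 12699 genes, with Benjamini-Hochberg adjusted p at a threshold of 0.05, called 0 of the 30 members tested, where 0.134% of all genes were called. At an unadjusted p under 0.05, 4 members were lower (13.3%, against 4.17% of all genes) and 0 were higher (against 10.7%). The log2 difference was below 0 in 25 of 30 (83.3%, against 44.5% of all genes). Its median was -0.22, with quartiles of -0.31 and -0.06, where the median over all genes was 0.03 with quartiles of -0.12 and 0.17. In 4 members every NM-101 value lay below every placebo value (13.3%, against 5.98%), and in 0 the reverse held (against 13.6%). In 10 of the 30 the difference was smaller than 1 standard error (SE). The members share cells and libraries and are not independent of each other, and in bulk RNA fewer vascular cells and less RNA per cell cannot be told apart.

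**Figure D4:**
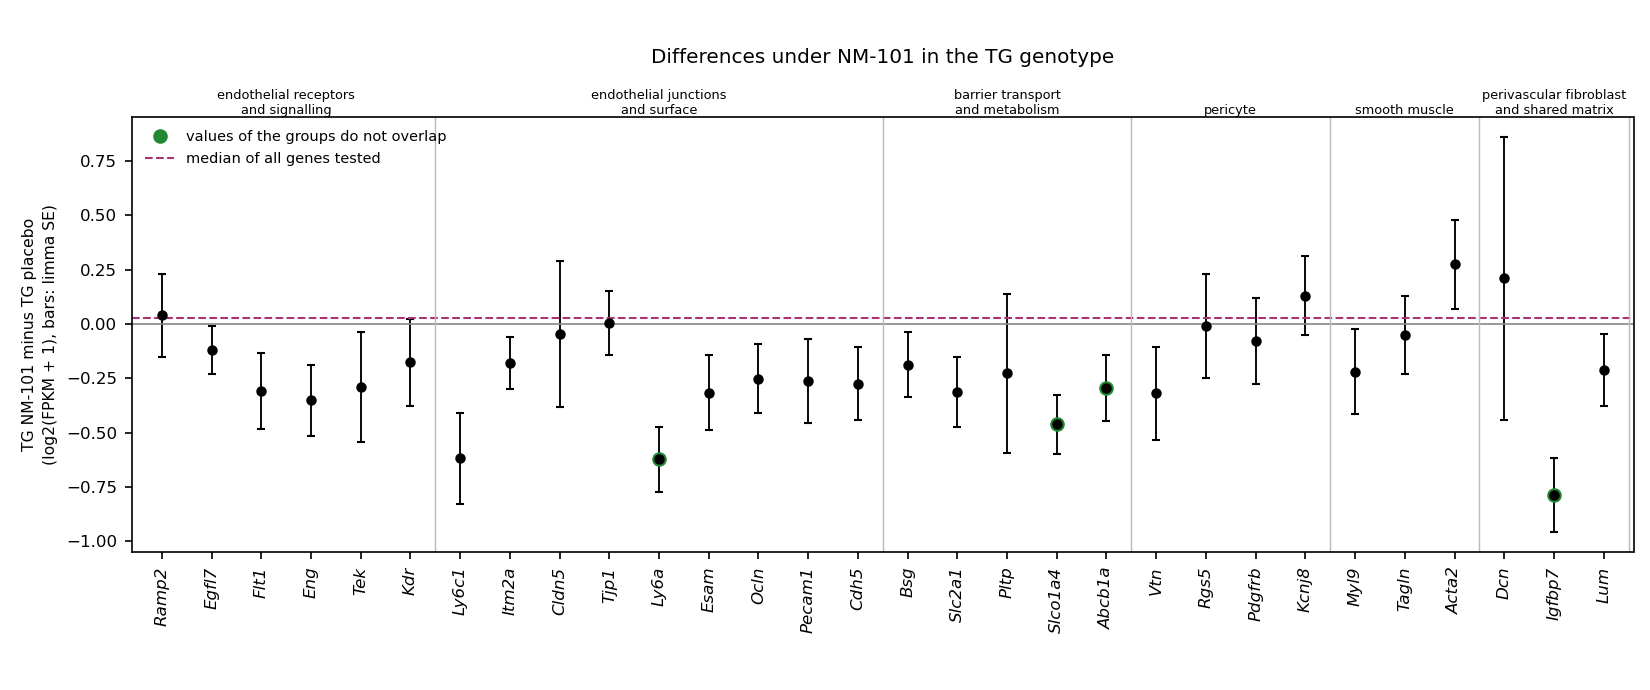
Log2 difference of TG NM-101 from TG placebo for the 30 genes tested, by class, with limma SE as bars; green rings mark genes whose 3 NM-101 values all lie below the 3 placebo values, and the dashed line is the median over all genes (0.03). Igfbp7 is lowest at -0.79, and 25 of the 30 genes lie below 0.

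Among endothelial receptors and signalling genes, 5 of 6 were below 0, with a median of -0.23. That median was -0.42 without TG placebo replicate 1, -0.15 without replicate 2 and -0.14 without replicate 3. With replicates 2 and 3 both left out, it was 0.03 over 4 genes. Endoglin, a co-receptor for transforming growth factor beta and bone morphogenetic proteins encoded by Eng, was at 1.88, 2.22 and 2.19 in TG placebo and 1.95, 1.65 and 1.64 under NM-101. Its values overlapped through NM-101 replicate 1, and it differed by -0.35 (SE 0.16, limma adjusted p = 0.358). Read from its highest transcript row alone, Eng differed by -0.76 (limma adjusted p = 0.378), and its leading row changed between libraries. That highest row, NM_007932, was at 1.85, 1.54 and 0.44 under NM-101, where NM_001146348 was at 0, 0 and 1.27. The vascular endothelial growth factor (VEGF) receptor gene Flt1 was at 1.82, 2.25 and 2.38 against 1.93, 1.74 and 1.85, a difference of -0.31 (SE 0.17). Tek, the angiopoietin receptor gene, differed by -0.29 and Kdr, the main signalling receptor for VEGF, by -0.18. In Flt1, Kdr and Tek the placebo values of replicates 2 and 3 lay above all NM-101 values and that of replicate 1 did not. Egfl7, a secreted endothelial factor gene that also hosts Mir126a, differed by -0.12, and Ramp2, the adrenomedullin receptor partner, by 0.04 (SE 0.19).

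Of the 9 tested genes of endothelial junctions and surface, 8 were below 0, with a median of -0.26. That median was -0.40 without TG placebo replicate 1, -0.21 without replicate 2 and -0.22 without replicate 3. With replicates 2 and 3 both left out, it was -0.02. The surface antigen gene Ly6a, which lies at chr15:74994877-74998031 and marks mouse brain endothelium, was at 3.85, 4.15 and 4.16 in TG placebo and 3.70, 3.36 and 3.22 under NM-101. All 3 NM-101 values lay below the placebo values, a 1.54-fold lower mean (log2 difference -0.62, SE 0.15, limma adjusted p = 0.126). Read from its highest transcript row alone, Ly6a differed by -0.37 (limma adjusted p = 0.506), and its leading row changed between libraries. Its neighbour Ly6c1, at chr15:75044018-75048920, was at 4.59, 4.93 and 5.14 against 4.71, 4.05 and 4.05. It differed by -0.62 (SE 0.21, limma adjusted p = 0.250), and NM-101 replicate 1 lay within the placebo values.

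Cldn5 was at 3.34, 4.53 and 4.21 in TG placebo and 4.10, 4.28 and 3.56 under NM-101. The placebo values enclosed those under NM-101, and its difference of -0.05 had an SE of 0.34. Cdh5 differed by -0.27, the platelet endothelial adhesion gene Pecam1 by -0.26, the endothelial adhesion gene Esam by -0.32 and the tight junction gene Ocln by -0.25, each with an SE of 0.16 to 0.19 and overlapping values. Itm2a, a membrane protein gene, differed by -0.18 and Tjp1 by 0.01. The untested Vwf was at 0.66, 1.04 and 0.78 against 0.65, 0.76 and 0.73.

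All 5 genes of barrier transport and metabolism were below 0, with a median of -0.30. This median was -0.16 without TG placebo replicate 1 and -0.18 without NM-101 replicate 3. Against the NM-101 mean the class stood at 0.45, 0.16 and 0.16 in TG placebo replicates 1 to 3, so its highest value was in replicate 1, where both endothelial classes had their lowest. Slco1a4, which carries organic anions and whose printed window held GGAAG 2 times, was at 3.03, 3.31 and 3.47 in TG placebo and 2.80, 2.86 and 2.77 under NM-101. The groups did not overlap, and the mean was 1.38-fold lower (log2 difference -0.46, SE 0.14, limma adjusted p = 0.188). Abcb1a, which encodes the efflux pump P-glycoprotein, was at 1.90, 2.25 and 2.05 against 1.88, 1.67 and 1.76. Its groups were also separate, by a narrow margin at replicate 1, with a difference of -0.30 (SE 0.15, limma adjusted p = 0.393). The glucose transporter gene Slc2a1 was at 5.41, 4.94 and 4.94 against 4.95, 4.89 and 4.52, a difference of -0.31 (SE 0.16). Pltp, the phospholipid transfer protein gene, was at 5.50, 4.26 and 4.41 against 4.92, 4.36 and 4.20, so its highest value was in the placebo library with high choroid plexus genes. Bsg differed by -0.19.

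Pericyte genes were nearer to 0, with a median of -0.04 over the 4 tested, which changed sign without TG placebo replicate 3 (0.0041) or NM-101 replicate 2 (0.07). Vtn, the vitronectin gene of pericytes, was at 4.26, 4.99 and 4.98 in TG placebo and 4.15, 4.61 and 4.51 under NM-101, a difference of -0.32 (SE 0.21, limma adjusted p = 0.505). Pdgfrb differed by -0.08, Rgs5, a regulator of G protein signalling, by -0.01 and the potassium channel gene Kcnj8 by 0.13, all with overlapping values. Notch3, which was not tested, was at 0.90, 1.13 and 1.07 against 0.74, 0.65 and 0.69, without overlap. Abcc9 and Anpep differed by -0.02 and 0.03. The smooth muscle genes differed by 0.28 for the actin gene Acta2, -0.05 for Tagln and -0.22 for the myosin light chain gene Myl9, with SEs of 0.18 to 0.21. Their median of -0.05 changed sign without TG placebo replicate 2 (0.06) or NM-101 replicate 2 (0.05).

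Igfbp7, at chr5:77349240-77408045, encodes a secreted binding protein that endothelial and mural cells both make, and it had the largest difference of the 30 genes. It was at 3.86, 3.70 and 3.89 in TG placebo and 3.37, 2.69 and 3.02 under NM-101. The groups did not overlap, and the mean was 1.73-fold lower (log2 difference -0.79, SE 0.17, unadjusted p = 0.00127, limma adjusted p = 0.105). The fibroblast genes of the class did not share this size, with 0.21 (SE 0.65) for Dcn and -0.21 (SE 0.16) for the proteoglycan gene Lum. Dcn was at 3.83 in TG placebo replicate 1 and 4.56 in NM-101 replicate 1, and between 5.59 and 5.77 in the other 4 TG libraries. The difference between the classes was not tested.

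The lower values under NM-101 depended on which placebo libraries they were set against. The member median, taken as the level minus the NM-101 mean, was 0.01 in TG placebo replicate 1, 0.30 in replicate 2 and 0.32 in replicate 3. Replicates 2 and 3 both lay above replicate 1 in 23 of the 34 genes, where they did so in 43.6% of all genes tested, and both lay below it in 7. Without TG placebo replicate 1, limma called 7 of 30 members, all lower (Flt1, Igfbp7, Ly6a, Ly6c1, Slco1a4, Tek and Vtn). That is 23.3% of the members, against 17.8% of 12729 genes called in either direction and 8.17% called lower. Limma's adjusted p for Igfbp7 was then 0.0201 and for Ly6a 0.00872, at differences of -0.77 and -0.72, and the member median was -0.38. Without replicates 2 and 3 instead, an alternative chosen after seeing the data, the median was -0.03 over 28 members, against 0.05 over all genes. With 1 placebo sample left, a count of called genes is not comparable with that of the main fit, and none is used here. In that setting the remaining placebo sample is assumed to vary like the NM-101 group. Igfbp7 was then at -0.83, Slc2a1 at -0.63, Ly6a at -0.42 and Slco1a4 at -0.23, while Flt1 turned to 0.02 and Vtn to 0.16.

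The same libraries differed in other RNA. Against the NM-101 mean, the median of 5 tested nuclear-retained RNAs was -0.90, 1.56 and 2.04 in TG placebo replicates 1 to 3. The 10 oligodendrocyte markers stood at 0.78, -0.55 and -0.67, and the 9 choroid plexus and ependymal markers at 2.75, -1.46 and -1.27. Summed, the choroid plexus and ependymal markers ran from 31.5 to 4937 FPKM in TG placebo and from 108 to 1139 FPKM under NM-101. Astrocyte markers were above 0 under NM-101 in 10 of 10 genes (median 0.34, 1 called) and microglial markers in 9 of 10 (median 0.36, 0 called). Of all genes tested, 44.5% were below 0 and 0.134% were called. Astrocyte markers summed to 1207 to 1367 FPKM in TG placebo and 1700 to 1817 FPKM under NM-101, and microglial markers to 286 to 309 and 375 to 378 FPKM. Neuronal markers had a median of 0.03 and oligodendrocyte precursor markers of 0.03. The part of these RNAs in the vascular differences was not tested.

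**Figure D5:**
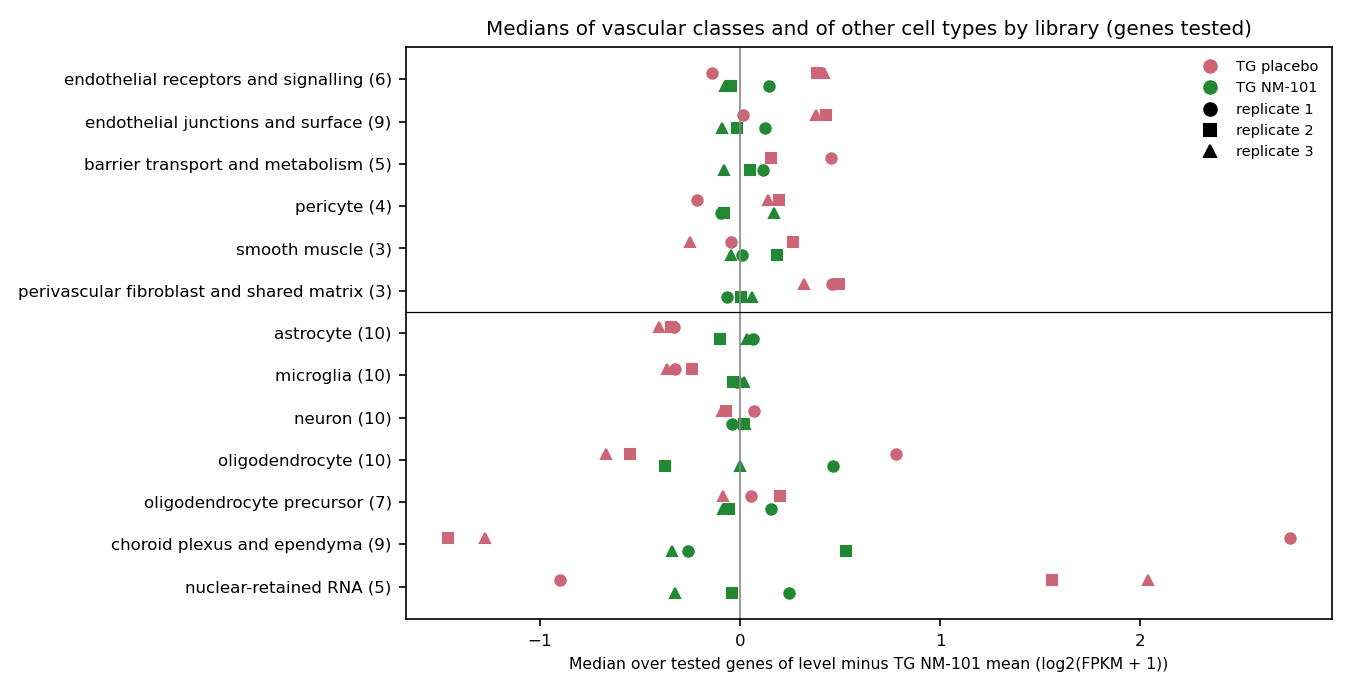
Median over the tested genes of each class or marker list, as level minus the TG NM-101 mean on the log2(FPKM + 1) scale, for each TG library; the number of genes is in parentheses, colours give the group and shapes the replicate. TG placebo replicates 2 and 3 lie above the NM-101 libraries in both endothelial classes and far above them in nuclear-retained RNA (1.56 and 2.04), while replicate 1 is highest in choroid plexus genes (2.75).

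Other genes of the vessel wall, from 13 lists, were compared in the same way. Of 135 genes listed, 91 were tested and 0 were called by limma in either direction. At an unadjusted p under 0.05, 8 were lower (8.79%, against 4.17% of all genes) and 5 higher (5.49%, against 10.7%). The difference was below 0 in 49 of 91 (53.8%, against 44.5%), and the median was -0.05, against 0.03. The list nearest to the members was other endothelial identity, with 8 of 9 tested genes below 0 and a median of -0.26. In it, Emcn, the gene of the sialomucin endomucin, was at 1.56, 2.02 and 2.10 in TG placebo and 1.29, 1.19 and 0.67 under NM-101 (difference -0.84, SE 0.22, limma adjusted p = 0.144). Of 14 tested genes of other barrier transport, 8 were below 0 with a median of -0.07. The thyroid hormone transporter gene Slco1c1 was at 4.00, 3.85 and 3.87 against 3.66, 3.32 and 3.29, without overlap (difference -0.48, SE 0.13, limma adjusted p = 0.149).

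Among 14 tested vascular ligands and receptors, 5 were below 0 and 9 above, with a median of 0.06, where 44.5% of all genes were below 0. Id3, a target of bone morphogenetic protein signalling that astrocytes express as well, was at 5.34, 5.09 and 5.27 in TG placebo and 5.85, 5.79 and 5.75 under NM-101 (difference 0.57, SE 0.10, limma adjusted p = 0.0746). Of 12 genes of barrier Wnt signalling, 6 were above and 6 below 0. The norrin co-receptor gene Tspan12 was at 3.58, 3.27 and 3.27 against 3.84, 3.80 and 3.85, without overlap (difference 0.46, limma adjusted p = 0.145).

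In the remaining lists the gene with the smallest p did not pass either. Of 7 basement membrane genes, 6 were below 0, where 44.5% of all genes were. The exception was Sparc, a collagen-binding matrix protein gene, at 0.35. The median was -0.30 in this list. It was -0.11 over 5 genes of activation and flow, where the flow-responsive transcription factor gene Klf2 differed by -0.55. Over 3 arterial genes it was 0.10, with the alkaline phosphatase gene Alpl at -0.41. Over 7 other junction genes it was 0.03, with the adhesion gene Jam2 at 0.20. Over 8 other pericyte genes it was -0.06 (Ifitm1, an interferon-induced gene, 0.42), over 6 other fibroblast genes -0.02 (the matrix Gla protein gene Mgp, 0.24) and over 2 other smooth muscle genes -0.04 (Smtn, smoothelin, -0.16). Over 3 genes of fenestrated endothelium it was 0.01 (the lipid phosphatase gene Plpp3, 0.27), and the single venous gene tested, the transcription factor gene Nr2f2, differed by -0.04.

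To see what the genotype changed, the 2 placebo groups were compared. Because the 2 sets of columns were normalized separately, differences are descriptions without a test. The members as a whole stood near 0. Single members without overlap, such as Acta2 (lower in TG placebo) and Ramp2, Slc2a1 and Rgs5 (higher), were not clearly more frequent than among all genes. The median over 30 members was -0.03, against 0.05 over 12426 genes, and 17 of 30 were below 0 (56.7%, against 43.6%). In 5 members (Acta2, Itm2a, Ly6c1, Myl9 and Tjp1) all TG placebo values lay below all WT values, which is 16.7% against 15.9% of all genes. In 3 (Ramp2, Rgs5 and Slc2a1) they lay above, which is 10% against 20.8%. The lower share was near that of all genes, and the higher share was below it. Acta2, the smooth muscle actin gene, was at 2.41, 2.48 and 2.20 in WT and 1.61, 1.32 and 1.20 in TG placebo, a difference of -0.98. Slc2a1 was at 4.55, 4.00 and 4.64 against 5.41, 4.94 and 4.94, a difference of 0.70. Rgs5 was at 3.20, 3.36 and 2.79 against 4.08, 3.54 and 3.71, a difference of 0.66, and Ramp2 differed by 0.87. The value of Ramp2 is uncertain, since 30.7% of its 50-base stretches also occur in Vps25. A transcript length other than the one the authors used would move a gene's difference from WT, and the part of length was not tested.

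TG NM-101 was set against the same WT libraries, so this comparison shares samples with both others. Most members stood below WT. The median over the 30 was -0.30, against 0.05 over all genes, and 25 of 30 were below 0 (83.3%, against 40.6%). Without WT placebo replicate 1 the median was -0.17, and without WT placebo replicate 3 it was -0.38. In 9 members (Acta2, Itm2a, Ly6a, Ly6c1, Myl9, Pecam1, Slco1a4, Tagln and Tek) all NM-101 values lay below all WT values, which is 30% against 13.1% of all genes. Ramp2 alone lay above, which is 3.33% against 23.5%. Ly6a was at 4.56, 4.78 and 4.15 in WT and differed by -1.07, and by -0.45 in TG placebo. Ly6c1 was at 5.16, 5.44 and 5.27 in WT and differed by -1.02, and by -0.40 in TG placebo. Slco1a4 was at 3.93, 3.45 and 3.04 in WT and differed by -0.66, and by -0.20 in TG placebo. Acta2 differed by -0.71 and Ramp2 by 0.91. Igfbp7 was at 4.23, 3.45 and 3.35 in WT, so it overlapped with both TG groups, and it differed by -0.65 under NM-101 and 0.14 in TG placebo.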

How the data were processed

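RNA of fixed, paraffin-embedded tissue was made into QuantSeq libraries, per the labels' protocols. Bowtie2 and mm10 stand in the submitters' processing notes, whereas a counting program and its annotation were not given in the sources used here. In the table the authors deposited, WT columns hold counts per RefSeq transcript, with totals of 10612290 to 14041951. The TG columns of the deposited table hold log2 values, read from the values as log2(FPKM + 1). Over 8724 genes on 1 row, the linear TG values followed the WT CPM with a slope of 0.98 on log2 scales and transcript length with a slope of -0.91. Their depth is unknown, so no interval is given for them.

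Rows were summed on the linear scale per symbol of the RefSeq gene table of GRCm38.p6, which named 32390 of 33299 rows, and written as log2(value + 1). Genes with a mean of at least 1 over the 6 TG samples entered a limma model (limma 3.58.1, R 4.3.3, variance trend, robust shrinkage, no covariates). The procedure was also run on data simulated from the means and spreads of these genes, and no result of that is given here. The pseudocount of 1 understates the differences of low genes. For WT, counts were divided by library total and GENCODE M21 transcript length. Alternatives changed the filter, pseudocount, scaling, shrinkage, replicate block, row choice and samples.

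The members and lists were chosen with earlier results of these data known. All 34 members are given. From each other vascular list the rule names every gene past the threshold and the gene with the smallest p, and from marker lists at most the 2 highest in WT. Malat1, Meg3, Ttr, Hba-a1, Hba-a2 and Hbb-bs were named after their values were seen.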

Additional observations from a re-analysis of the deposited data

How the results depend on the processing

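In TG NM-101 against TG placebo, limma called 17 genes in all and 0 of 30 members, and the member median was -0.22. The count over all genes was 4 with no filter on low values, 4 with median-ratio scaling, 4 without trend or robust shrinkage and 7 with the highest transcript row of each gene. It was 0 of 12664 genes above 0 in all 6 samples, where 1894 had an unadjusted limma p under 0.05. Leaving out 1 sample gave 2 to 2262 genes and 0 to 7 members, with the highest value of each without TG placebo replicate 1, and member medians of -0.38 to -0.18. Without TG placebo replicates 2 and 3 the count was 105 genes, the member median -0.03, Vtn 0.16 and Flt1 0.019. This setting was chosen after seeing the data and leaves 1 placebo sample, which has no spread of its own. Its count of genes is therefore not comparable with the other counts, and no conclusion is drawn from it. The causes of the shifts between settings were not tested. With the replicate block, 3 genes and 0 members were called. Whether the numbers pair the samples is not known. Correlations of deviations from the group means were 0.045, -0.027 and -0.018 for same-numbered samples, and not every sample correlated best with its own number. Such small correlations, from means of 3 samples, cannot decide it. Reading each gene from its highest transcript row moved Ly6a from -0.62 to -0.37 and Eng from -0.35 to -0.76. In both genes the leading row changed between libraries. Members were called under no other alternative run. Of 158 alternatives for 11 single members, 2 reversed and 7 passed the threshold, all 7 of them without TG placebo replicate 1. The medians of differences from WT moved by less than the spread between replicates under every alternative run. With 3 samples a group and unknown depth in the TG libraries, small differences of low genes could not be resolved. Kdr and Tek were lowest of those tested on the per-length scale. By WT reads, Kcnj8, Lum and Tagln were lowest of those tested, with means of 3.1, 4.7 and 5.3 CPM. Cdh5 at 6.56 CPM was also below Kdr at 6.72. Esam, Acta2 and Ocln at 7.0, 8.5 and 9.5 CPM were above Kdr and below Tek at 9.6.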

Other observations

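Type IV collagen genes of the vascular basement membrane set TG placebo replicates 2 and 3 apart, and they were chosen here after their values were seen. Col4a1 was at 1.40, 3.32 and 3.38 in TG placebo, 2.05, 1.99 and 1.72 under NM-101, and 2.18, 1.61 and 1.78 in WT. Col4a2, which lies beside it and encodes its partner chain, was at 1.77, 3.50 and 3.60 in TG placebo, 1.93, 2.00 and 1.99 under NM-101, and 1.99, 1.81 and 1.82 in WT. In both genes TG placebo replicates 2 and 3 lay above the other 7 libraries, and replicate 1 lay below all of them. Limma gave adjusted p-values of 0.531 and 0.397 for NM-101 against placebo. The same 2 libraries were the highest of all 9 in Meg3, a nuclear-retained RNA, at 8.64 and 8.69 against 4.77 to 6.37 in the other 7. What the collagen genes share with that RNA was not tested.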
